A study of Mus musculus with 23 samples.

Results

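Medulloblastomas of mice that carry 1 disrupted copy of Ptch1 in the germline (Ptch1+/-) were compared with granule neuron precursors (GNPs), the cell type from which this tumour arises. The comparison uses 4 Ptch1+/- tumours and 3 GNPs samples, 7 of the 23 arrays of the series, chosen by their sample titles alone. The tumours are cerebellar tumours of germline Ptch1-disrupted mice, and the GNPs are non-neoplastic cells isolated from cerebella between postnatal days 4 and 7. The labels give the CD1 strain for both groups. Age and sex of the tumour-bearing mice, the disrupted Ptch1 allele, the state of the remaining allele in the tumours and whether GNPs were pooled from several animals are not given in the sources used here, and age therefore cannot be told apart from tumour state. A tumour sample is a piece of tissue and a GNPs sample is a cell preparation, and either may hold other cells. Marker lists of vessels, meninges and choroid plexus were higher in the GNPs samples than in the tumours, as given below. The part of such cells in the falls of any gene or list below was not tested. The other arrays were 5 MERP tumours, in which Ptch1 was disrupted after birth in Math1-expressing cells, 3 tumours made by CRISPR disruption of Ptch1, 4 GTML tumours and 4 adult cerebella. The CRISPR tumours are titled EP or TF. The authors use EP for in utero electroporation of wild-type mice and TF for postnatal transfection, for these arrays of Trp53-/- mice. Both kinds were fitted as 1 group. All these other arrays share the estimate of the spread, and MERP is used below as a second Ptch1-deficient tumour.

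Sonic hedgehog (SHH), secreted by Purkinje cells, is the mitogen of GNPs. Its receptor PTCH1 holds the transducer SMO inactive until the ligand binds, after which GLI transcription factors switch on target genes, among them Gli1, Hhip and Ptch1 itself. Loss of Ptch1 leaves the pathway on without ligand. In the normal cerebellum GNPs divide in the outer layer for the first postnatal weeks and then leave the cell cycle, migrate inward and become granule neurons.

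Each value is the log2 RMA signal of 1 probe set per gene, so that a difference of 1 is a doubling of signal. Differences are Ptch1+/- minus GNPs, given with their standard error, and adjusted p-values are from limma over 18194 genes. Of these genes 7150 (39.3%) passed an adjusted p of 0.05, 1710 higher (9.40%) and 5440 lower (29.9%) in the tumours. This balance depends on the scale of the arrays. The median over named genes was 6.94 to 7.22 on the Ptch1+/- arrays and 7.56 to 7.60 on the GNPs arrays, although the medians of all probe sets lay within 6.03 to 6.15 on all 7. Centring each array on the median of its named genes moved the median difference of all genes to 0.44 from the deposited -0.10, and 80.5% of 11675 calls were then higher, against 23.9% of the 7150. The share was 17.1% of 7498 calls after centring on the median of all probe sets, 54.1% after a second quantile normalisation and 41.2% after centring on deviations from each gene's mean. A gene is therefore said to have risen or fallen here only where it was called with the same sign on both scales, which held for 3987 genes, 1710 higher (9.40% of all) and 2277 lower (12.5%). These shares are the background for every count below of list members that rose or fell. Dim genes, not above 7.31 on at least 3 of the 23 arrays, are part of it. With them left out 4496 of 10986 genes were lower and 1364 higher as deposited, with a median difference of -0.29. Groups that do not overlap were common. They were found in 5428 of the 9927 genes whose higher group mean was above 7.31. Centring on named genes raised every difference by the same amount. It thus removed calls of lower genes and none of higher genes, and for rises the second scale is no check. After it 9398 of the 18194 genes were called higher. A centred difference given below for a gene that did not pass as deposited is therefore no evidence of a rise particular to that gene. Centring on all probe sets, which lowered them, left 1282 genes called higher, against the deposited 1710. Of the 182 genes named, 10 that were not called as deposited were called after centring on named genes. Control probe sets from the 3′ and 5′ ends of the same transcript also separated the groups. The 3′ minus 5′ gap of beta-actin was 1.16 to 1.73 in Ptch1+/- tumours and 0.59 to 0.83 in GNPs, and that of Gapdh was 0.81 to 1.34 in Ptch1+/- tumours and 0.026 to 0.23 in GNPs. The part of this gap, a sign of RNA integrity or labelling, in the results below was not tested. Correlations between arrays over all genes were 0.977 to 0.991 among the tumours, 0.992 to 0.998 among the GNPs and 0.938 to 0.952 between the groups. GNPs replicates 2 and 3 were the closest pair (0.998) and held values equal in every deposited decimal for 15 genes. Whether the replicates came from separate animals is not stated, so that p-values measure a spread between samples and not between animals. That spread was estimated within 6 groups over all 23 arrays, and can differ from the spread of the groups compared. Cdk6, for example, had an SD of 0.096 in the tumours and 0.12 in GNPs, but a standard error of 0.47. With only the Ptch1+/- and GNPs arrays in the fit 6820 genes were called.

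The receptor genes of the hedgehog pathway were split. Ptch1 measured 11.84, 11.50, 12.26 and 11.80 in the Ptch1+/- tumours, against 12.04, 11.76 and 11.67 in the GNPs. The groups overlapped, and the difference of 0.03 ± 0.21 (adjusted p = 0.936) did not pass the test as deposited. After centring on named genes, which raised every difference by the same amount, the difference was 0.57 (limma adjusted p = 0.0151). The 3 probe sets of Ptch1 cannot check the genotype, because the disrupted part of the allele is not given. Smo, the transducer that PTCH1 restrains, measured 11.88, 11.69, 11.43 and 11.63 in the Ptch1+/- tumours, against 10.75, 10.76 and 10.72 in the GNPs, and rose by 0.91 ± 0.27 (adjusted p = 0.00927), with every tumour above every GNPs sample. The co-receptor Boc, which presents the ligand to PTCH1, measured 11.24, 11.43, 10.71 and 10.90 in the Ptch1+/- tumours, against 10.63, 9.93 and 9.88 in the GNPs. Its groups did not overlap either, and it rose by 0.92 ± 0.21 (adjusted p = 0.00112), with 2 of its 3 probe sets pointing that way. Gas1, another co-receptor, rose by 0.52 ± 0.17 (adjusted p = 0.0184). The third co-receptor Cdon went the other way, with 5.54, 6.39, 5.79 and 5.76 in the Ptch1+/- tumours, against 7.91, 7.66 and 7.42 in the GNPs. It fell, with a difference of -1.79 ± 0.34 (adjusted p = 0.000243). Scube2, which helps to release the lipid-bearing ligand from its source cell, fell most, with 3.68, 4.02, 3.53 and 3.86 in the Ptch1+/- tumours, against 7.08, 6.78 and 6.52 in the GNPs, a difference of -3.02 ± 0.17 (adjusted p = 3.36e-11). The 4 tumour values lay below the lower quartile of all probe sets, 4.42 to 4.55 on these arrays. Hhip, a decoy receptor and target gene, measured 9.53, 7.54, 8.02 and 7.63 in the Ptch1+/- tumours, against 7.70, 7.31 and 7.05 in the GNPs. Tumour 1 stood well above the other 3, the groups overlapped, and the difference of 0.83 ± 0.53 (adjusted p = 0.235) did not pass as deposited. After centring on named genes the difference was 1.37 (limma adjusted p = 0.0216). Of the 12 measured members of the list of ligands, receptors and co-receptors, 3 rose and 2 fell on both scales, and the median difference was 0.11.

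Among transducers and transcription factors, Gli1, the activator that is itself a target of the pathway, measured 10.71, 9.85, 10.42 and 10.39 in the Ptch1+/- tumours, against 9.52, 9.04 and 8.91 in the GNPs. It rose by 1.19 ± 0.24 (adjusted p = 0.000486), a 2.28-fold difference in signal, and the lowest tumour was above the highest GNPs sample. Sufu, the negative regulator that binds GLI proteins, rose too, by 0.81 ± 0.20 (adjusted p = 0.0024). Evc, a ciliary protein that carries the SMO signal onward, rose by 0.90 ± 0.24 (adjusted p = 0.00453), with tumour 4 at the level of the highest GNPs sample (7.85). Gli2, the main activator at the start of the response, measured 11.72, 11.36, 11.61 and 11.88 in the Ptch1+/- tumours, against 11.61, 11.62 and 11.61 in the GNPs, which overlapped and differed by 0.03 ± 0.21 (adjusted p = 0.927) as deposited. After centring on named genes the difference was 0.57 (limma adjusted p = 0.0187). Gli3, which acts mostly as a repressor, measured 5.37, 6.02, 6.34 and 5.95 in the Ptch1+/- tumours, against 8.48, 8.74 and 8.68 in the GNPs. It fell by 2.72 on the log2 scale (standard error 0.38, adjusted p = 1.01e-05), and all 3 of its probe sets pointed the same way. Efcab7, which anchors the EVC proteins in the cilium, fell as well, with a difference of -1.53 ± 0.23 (adjusted p = 1.97e-05). Of 21 measured members 3 rose, 2 fell and 13 were not called as deposited, and the median difference was near 0.

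The response genes did not move together. Sfrp1, a secreted WNT antagonist that hedgehog signalling induces, measured 14, 13.57, 12.77 and 13.25 in the Ptch1+/- tumours, against 11.55, 11.44 and 11.50 in the GNPs, and rose by 1.90 ± 0.39 (adjusted p = 0.000565). Cdk6, a G1 kinase, measured 12.27, 12.44, 12.49 and 12.41 in the Ptch1+/- tumours, against 10.30, 10.46 and 10.54 in the GNPs. Its 4 tumour values lay close together, all above GNPs, and the rise was 1.97 ± 0.47 (adjusted p = 0.00205). Bmi1, a Polycomb gene, rose by 0.64 ± 0.15 (adjusted p = 0.00158). Mycn, the MYC family member that SHH induces in GNPs, measured 12.03, 12.23, 11.96 and 12.30 in the Ptch1+/- tumours, against 11.79, 11.67 and 11.78 in the GNPs. All tumours were above all GNPs samples, but the difference of 0.38 ± 0.21 (adjusted p = 0.168) did not pass the test as deposited. After centring on named genes the difference was 0.92 (limma adjusted p = 0.000818). The D cyclins were close in both groups as deposited, with a difference of -0.03 ± 0.21 (adjusted p = 0.942) for Ccnd1 and 0.21 ± 0.20 (adjusted p = 0.448) for Ccnd2. Ccnd2 measured 13.49 to 13.63 in the tumours and 13.31 to 13.38 in the GNPs, without overlap. After centring on named genes the differences were 0.51 (limma adjusted p = 0.0607) for Ccnd1 and 0.75 (limma adjusted p = 0.00234) for Ccnd2. On the other side stood Igf2, a growth factor needed for tumours in this model, with 7.23, 8.89, 8.95 and 7.87 in the Ptch1+/- tumours, against 12.28, 12.03 and 11.74 in the GNPs, a difference of -3.78 ± 0.77 (adjusted p = 0.000471). Tumours 1 and 4 were the lowest, and none came near the GNPs. Prdm1, Nkx2-2 and Fst fell too, by differences of -1.91, -1.71 and -1.22, with tumour values of 3.96 to 5.36, low among all probe sets. Markers of meninges, vessels and choroid plexus were also higher in the GNPs samples, and the part of such cells in the falls of Igf2 and these genes was not tested. Of 20 measured members 4 rose and 4 fell, against 9.40% and 12.5% of all genes, and the median difference was 0.00087.

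**Figure D1:**
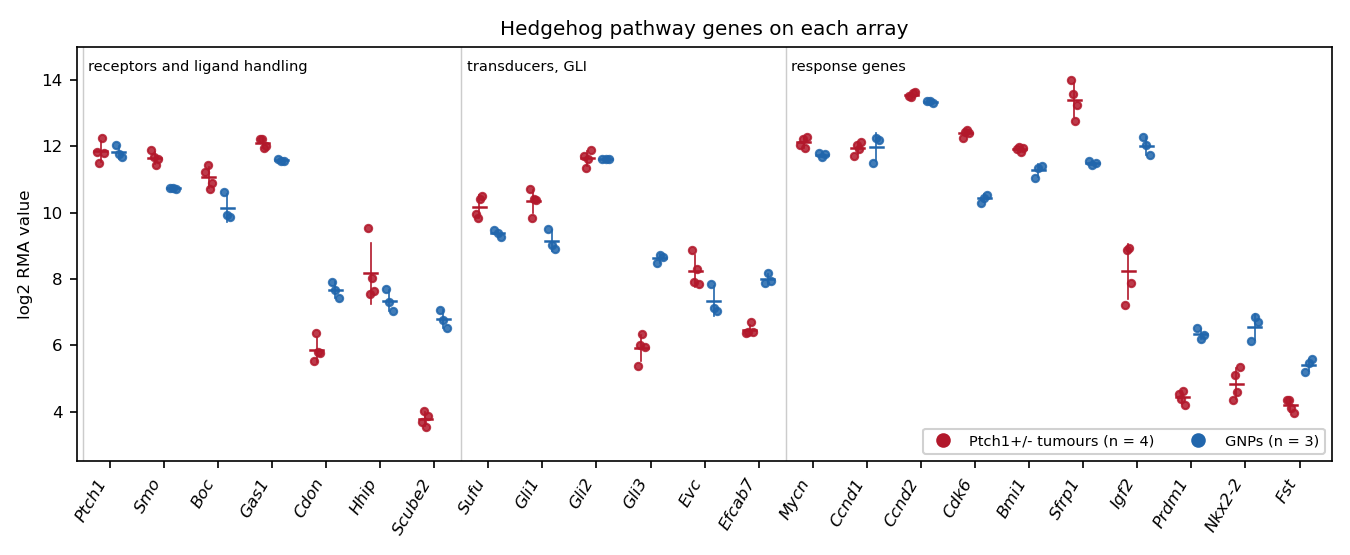
Log2 RMA values of 23 hedgehog pathway genes on the 4 Ptch1+/- arrays (red, left of each pair) and the 3 GNPs arrays (blue). Points are arrays, short horizontal lines are group means and vertical lines are 1 SD. Smo, Gli1, Cdk6 and Sfrp1 lie higher in the tumours, Ptch1 and Gli2 overlap, and Gli3, Scube2 and Igf2 lie lower.

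GLI proteins bind the letters GACCACCCA. Promoter windows ran from 250 bases before to 50 bases after the start, from RefSeq (build GRCm38.p6). On either strand this run was found in 0 of the 10 genes with a window in the list of ligands and receptors. Among the response genes it was found in 0 of the 14 with a window. It occurred in 0.253% of all 32851 windows, of which a gene can have several.

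Across all genes, the largest rises on both scales among genes whose groups did not overlap and whose higher mean exceeded 7.31, the median of all values, were led by an uncharacterised transcript, 6330415B21Rik, with a difference of 4.87 ± 0.67 (adjusted p = 6.64e-06). Malat1, an abundant nuclear long noncoding RNA, followed with 12.58, 14.02, 14 and 14.07 in the Ptch1+/- tumours, against 10.02, 9.01 and 8.68 in the GNPs, a difference of 4.43 ± 0.59 (adjusted p = 5.04e-06). Tumour 1 was lower than the other 3, and still far above all GNPs samples. Cdkn2a, described below, was the fourth. Gpnmb, a membrane glycoprotein known from phagocytes and melanocytes, measured 9.78, 10.82, 9.56 and 9.48 in the Ptch1+/- tumours, against 5.90, 5.58 and 6.44 in the GNPs, a rise of 3.94 ± 0.39 (adjusted p = 9.85e-08). Sema3e, a secreted guidance cue, measured 11.66, 9.58, 8.98 and 7.86 in the Ptch1+/- tumours, against 5.88, 5.34 and 5.65 in the GNPs. It was above GNPs in all 4 tumours, tumour 1 the highest and tumour 4 the lowest, and rose by 3.89 ± 0.51 (adjusted p = 3.67e-06). Pou4f1, a sensory neuron transcription factor, rose by 3.71 ± 0.59 (adjusted p = 3.81e-05). Lcn2, an iron-carrier-binding protein of inflammation, rose by 3.41 ± 1.09 (adjusted p = 0.0163), with tumour 2 (10.40) above the others (7.36 to 8.02), and lost the call without it (2.71, limma adjusted p = 0.0632) and without GNPs sample 3 (3.28, limma adjusted p = 0.0543). Mid1, an X-linked ubiquitin ligase, rose by 3.37 ± 1.0 (adjusted p = 0.0104). The remaining 4 of the 12 were 2310067E19Rik, Cldn34c1, A330076H08Rik and the transcript of Mir1931.

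The deepest fall was that of Grb10, an imprinted adaptor that restrains insulin and IGF receptors, with 4.59, 4.70, 5.32 and 5.05 in the Ptch1+/- tumours, against 10.93, 11 and 10.91 in the GNPs. The difference was -6.03 ± 0.84 (adjusted p = 8.17e-06), and its 3 probe sets pointed the same way. Aplnr, the apelin receptor of endothelial cells, measured 7.80, 6.45, 7.37 and 6.11 in the Ptch1+/- tumours, against 12.77, 12.31 and 12.47 in the GNPs, a difference of -5.58 ± 0.51 (adjusted p = 3.04e-08). Gad1, which makes GABA, measured 4.44, 4.52, 3.73 and 4.45 in the Ptch1+/- tumours, against 9.71, 9.59 and 9.52 in the GNPs, and Tfap2b, a transcription factor of the GABAergic cerebellar lineage, 3.80, 3.97, 3.97 and 3.76 in the Ptch1+/- tumours, against 8.58, 9.02 and 8.87 in the GNPs. In both, all tumour values were low and those of GNPs well above them, with differences of -5.32 ± 0.94 (adjusted p = 0.000116) and -4.95 ± 0.32 (adjusted p = 1.97e-10). Others of the 12 are known from vessels, meninges or the ependymal and choroid epithelium: Col3a1, a fibrillar collagen (-4.74), Nid2, of basement membranes (-4.77), Tbx18, of pericytes and meninges (-4.85), Slc6a20a, a proline transporter (-5.06), and Dynlrb2, a dynein light chain of motile cilia (-5.10). Rps4l, Ccn3 and Calml4 complete the 12, with differences of -5.38, -5.08 and -4.99.

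**Figure D2:**
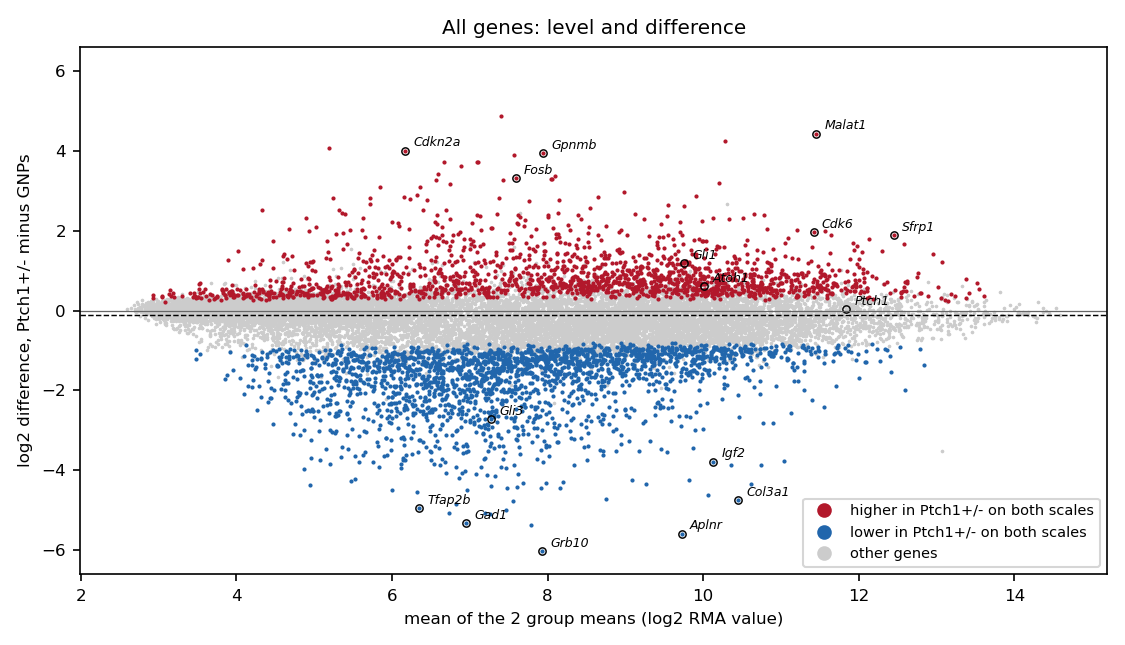
Difference in log2 RMA value (Ptch1+/- minus GNPs) of 18194 genes against the mean of both group means. Red and blue points were called higher and lower in Ptch1+/- tumours on both scales, grey points were not, and the dashed line is the median difference of all genes, -0.10. Falls reach further from 0 than rises.

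Of 19 measured genes of GNP identity 16 were not called as deposited. After centring on named genes 8 were called higher, beside 9398 of all 18194 genes. Atoh1, the master regulator of GNPs, measured 10.90, 9.93, 10.59 and 9.86 in the Ptch1+/- tumours, against 9.59, 9.77 and 9.77 in the GNPs, all tumours above all GNPs samples, and its difference of 0.61 ± 0.29 (adjusted p = 0.1) did not pass as deposited. After centring on named genes the difference was 1.16 (limma adjusted p = 0.0019). Barhl2, a homeobox gene of the same lineage, rose by 0.72 ± 0.17 (adjusted p = 0.00205), and Mfap4, a matrix protein, fell, with a difference of -2.32 ± 0.49 (adjusted p = 0.000705). The mean level of the list was 10.45 to 10.78 in the tumours and 10.56 to 10.71 in GNPs. Of 24 genes of early granule neuron differentiation 18 were not called, and 1 rose and 2 fell on both scales, beside 9.40% and 12.5% of all genes. Unc5c, a netrin receptor of migrating granule cells, measured 8.05, 8.71, 8.06 and 9.23 in the Ptch1+/- tumours, against 11.91, 11.23 and 11.29 in the GNPs, a difference of -2.96 ± 0.39 (adjusted p = 4.52e-06). Neurod2, a transcription factor of maturing granule neurons, measured 7.10, 7.81, 7.82 and 8.36 in the Ptch1+/- tumours, against 9.63, 9.65 and 9.73 in the GNPs, a difference of -1.90 ± 0.29 (adjusted p = 2.13e-05). Map2, a dendritic microtubule protein, rose by 0.43 ± 0.15 (adjusted p = 0.0299), with overlapping arrays and a call lost without any 1 of 5 arrays (limma adjusted p = 0.0564 to 0.129). Against 9.40% and 12.5% of all genes, 0 of 19 genes of mature granule neurons rose and 3 fell on both scales. Besides Neurod2 these were Kcnd2, a potassium channel (-2.96 ± 0.56, adjusted p = 0.000252), and Car4, a carbonic anhydrase also found on capillaries (-4.50 ± 0.58, adjusted p = 3.14e-06). Gabra6, the GABA receptor subunit of finished granule neurons, measured 5.56, 5.57, 5.19 and 4.52 in the Ptch1+/- tumours, against 4.13, 3.93 and 3.93 in the GNPs, low in both groups, and its difference of 1.22 ± 0.62 (adjusted p = 0.133) did not pass.

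Cell cycle genes were high in both groups. Mki67, the proliferation antigen, measured 13.45, 13.20, 13.30 and 13.24 in the Ptch1+/- tumours, against 13.35, 12.65 and 12.68 in the GNPs, which overlapped. Of 34 genes of mitosis and G2/M 21 were lower as deposited, 5 fell on both scales and 6 were called higher after centring. Over all 18194 genes 9398 were called higher after centring. The list median was -0.44 as deposited and 0.10 after centring, against -0.10 and 0.44 over all genes. The direction of the list as a whole thus turns with the scale. The 5 that fell on both were Pttg1, the separase inhibitor securin, with 11.44, 10.19, 10.92 and 10.47 in the Ptch1+/- tumours, against 12.53, 12.54 and 12.89 in the GNPs and a difference of -1.90 ± 0.25 (adjusted p = 4.76e-06), Ccnb2, a mitotic cyclin (-1.47), Cdc25c, the phosphatase that opens mitosis (-1.45), Aurkb, the kinase of the chromosomal passenger complex (-1.10), and Ube2c, the ubiquitin-conjugating enzyme of the anaphase promoting complex (-0.96). Of 33 DNA replication genes 15 were lower as deposited but 1 fell on both scales, Rfc4, a clamp loader subunit (-1.30 ± 0.25, adjusted p = 0.000294), and 2 rose, Orc1 of the origin recognition complex (0.88 ± 0.17, adjusted p = 0.000374) and Tyms, thymidylate synthase (0.86 ± 0.31, adjusted p = 0.0323), with the median at -0.37 as deposited and 0.17 after centring. Among 25 cyclins, CDKs and E2F factors, 3 rose and 3 fell on both scales, near the 9.40% and 12.5% of all genes. E2f7, an E2F repressor, fell, with a difference of -1.32 ± 0.20 (adjusted p = 1.75e-05), and Cdc25a, the phosphatase of the G1 to S step, rose by 0.78 ± 0.16 (adjusted p = 0.000496).

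CDK inhibitors diverged within their family. Cdkn2a, which encodes INK4A and ARF, measured 8.84, 7.77, 8.06 and 8.02 in the Ptch1+/- tumours, against 3.97, 4.34 and 4.19 in the GNPs. It rose by 4.01 ± 0.74 (adjusted p = 0.000196), and the GNPs values lay below the lower quartile of all probe sets, 4.40 to 4.43 on those arrays. Its neighbour Cdkn2b, which encodes INK4B, rose by 0.85 ± 0.27 (adjusted p = 0.0141). Cdkn1c, the imprinted inhibitor p57, measured 6.81, 6.44, 7.03 and 6.29 in the Ptch1+/- tumours, against 8.87, 9.21 and 9.06 in the GNPs, a fall with a difference of -2.41 ± 0.32 (adjusted p = 4.45e-06). Cdkn2d, the INK4D inhibitor of postmitotic neurons, fell with a difference of -1.09 ± 0.15 (adjusted p = 5.96e-06), and Gadd45g, a growth arrest gene, with -1.10 ± 0.21 (adjusted p = 0.000294). Of the 17 members measured, 5 rose and 3 fell on both scales.

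Among 27 measured genes of the p53 list 6 rose and 3 fell on both scales, beside 9.40% and 12.5% of all genes, so that the falls were near the share over all genes. Bbc3, the death gene Puma, rose by 0.70 ± 0.16 (adjusted p = 0.0012), and Phlda3, an AKT repressor, by 0.86 ± 0.21 (adjusted p = 0.00202). Perp, a desmosomal p53 target, fell (-2.49 ± 0.33, adjusted p = 4.33e-06), as did Trp73, the p53 relative (-1.47 ± 0.13, adjusted p = 2.68e-08). Of the BCL2 family Hrk, a BH3-only death gene of neurons, measured 7.90, 8.75, 8.38 and 8.52 in the Ptch1+/- tumours, against 6.61, 6.85 and 6.63 in the GNPs, and rose by 1.69 ± 0.30 (adjusted p = 0.000119). It and Bbc3 were the 2 members of 14 that rose on both scales, beside 9.40% of all genes.

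Myc measured 10.54, 9.32, 9.71 and 10.30 in the Ptch1+/- tumours, against 7.91, 8.27 and 8.07 in the GNPs. It rose by 1.88 ± 0.32 (adjusted p = 8.69e-05), without overlap, whereas Mycn stayed at high values in both groups, as given above. Of 13 members of the MYC network, Myc and Mga, a MAX partner, rose on both scales, Mga by 0.66 ± 0.15 (adjusted p = 0.00123). Of 30 ribosome biogenesis genes 5 rose and 0 fell on both scales, although 8 were lower as deposited. The 5 were Polr1b and Polr1a, subunits of RNA polymerase I, Ubtf, its promoter factor, and Gnl3 and Nop2, nucleolar proteins, with differences of 0.87, 0.70, 0.52, 0.84 and 0.72. Of 30 cytosolic ribosomal protein genes 20 were not called, Rpl12 rose (0.70) and Rpl14 fell (-1.0).

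Immediate early genes rose in part. Of 28 measured, 8 rose and 0 fell on both scales, a share above the 9.40% of all genes. Fosb, a subunit of the AP-1 factor, measured 10.35, 8.34, 9.61 and 8.69 in the Ptch1+/- tumours, against 5.50, 6.81 and 5.48 in the GNPs. It rose by 3.31 ± 0.67 (adjusted p = 0.000466), although the tumours spread widely, and GNPs sample 2 lay above the other GNPs samples. Fosl2, another FOS subunit, measured 9.29, 9.62, 9.93 and 9.48 in the Ptch1+/- tumours, against 7.46, 7.38 and 6.99 in the GNPs, a tighter pattern, and rose by 2.30 ± 0.29 (adjusted p = 2.4e-06). Nr4a2, an orphan nuclear receptor, rose by 2.12 ± 0.23 (adjusted p = 4.07e-07). Jun measured 12.96, 12.78, 12.76 and 12.61 in the Ptch1+/- tumours, against 10.90, 11.53 and 10.82 in the GNPs, and rose by 1.69 ± 0.24 (adjusted p = 1.03e-05), and Jund rose by 0.88 ± 0.20 (adjusted p = 0.00104). Fos itself was high in both groups, with 13.62, 12.74, 12.59 and 12.70 in the Ptch1+/- tumours, against 12.31, 12.77 and 12.20 in the GNPs, and its difference of 0.48 ± 0.43 (adjusted p = 0.413) did not pass. Dusp1, the phosphatase that ends MAP kinase signals, rose by 0.84 ± 0.29 (adjusted p = 0.0253), and it was chosen after its values were seen, because its promoter holds the binding letters of CREB. These letters, TGACGTCA, which read the same on both strands, were found in 2 of the 22 listed genes with a promoter window and in 1.79% of all windows. The Dusp1 window, chr17:26508423-26508722 on the minus strand of GRCm38.p6, is printed 5′ to 3′ with the match in capitals. It begins 143 bases before the start.
Dusp1: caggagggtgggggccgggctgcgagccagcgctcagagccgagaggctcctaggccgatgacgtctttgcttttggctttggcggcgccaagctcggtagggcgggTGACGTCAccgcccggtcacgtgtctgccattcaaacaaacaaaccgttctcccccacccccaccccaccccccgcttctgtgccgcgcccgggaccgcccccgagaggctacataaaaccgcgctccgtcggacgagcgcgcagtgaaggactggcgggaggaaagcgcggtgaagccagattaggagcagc

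Of 38 genes of oxidative phosphorylation 31 were called lower and 0 higher as deposited, and 8 fell on both scales, with a median of -0.59 as deposited and -0.046 after centring. Sdhb, the iron-sulfur subunit of complex II, measured 10.62, 10.84, 10.34 and 10.18 in the Ptch1+/- tumours, against 11.88, 11.92 and 11.92 in the GNPs, a difference of -1.41 ± 0.17 (adjusted p = 1.14e-06). Atp5o and Atp5g1, subunits of the ATP synthase, fell with differences of -1.29 and -1.17, and Ndufb5 and Ndufa8 of complex I with -1.08 and -1.02. Tumours 3 and 4, which had the lowest medians over named genes and the largest 3′ minus 5′ gaps, were also the lowest in each of these 5 genes, and the part of that in the result was not tested. Glycolytic and hypoxia genes were divided, 2 up and 7 down on both scales of 28. Slc2a3, the high-affinity glucose transporter of neurons, measured 12.24, 11.88, 11.57 and 11.70 in the Ptch1+/- tumours, against 9.94, 9.66 and 9.79 in the GNPs, and rose by 2.05 ± 0.24 (adjusted p = 1.06e-06). Hk2, the hexokinase that SHH signalling is known to induce in GNPs, measured 12.10, 11.54, 11.97 and 12 in the Ptch1+/- tumours, against 9.96, 10.26 and 10.39 in the GNPs, and rose by 1.70 ± 0.19 (adjusted p = 4.07e-07). Tpi1, triose phosphate isomerase, fell (-1.89 ± 0.35, adjusted p = 0.000224), as did Slc2a1, the glucose transporter of the blood-brain barrier (-1.49 ± 0.36, adjusted p = 0.00242), and Adm, a hypoxia-induced vascular peptide (-1.57 ± 0.38, adjusted p = 0.00255).

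Cholesterol synthesis genes were called lower only, as deposited. Of 19 measured genes 13 were lower as deposited and 9 on both scales, with 0 higher as deposited, against 29.9% and 12.5% of all genes. With dim genes left out 4496 of 10986 genes were lower as deposited. The list median was -0.88 as deposited and -0.34 after centring. Fdps, which makes farnesyl diphosphate, measured 9.0, 8.46, 8.20 and 7.82 in the Ptch1+/- tumours, against 10.84, 11.08 and 11.13 in the GNPs, a difference of -2.65 ± 0.32 (adjusted p = 1.33e-06), and only 1 of its 2 probe sets pointed that way. Idi1, the isomerase one step before it, measured 9.74, 9.47, 9.95 and 9.57 in the Ptch1+/- tumours, against 11.27, 11.44 and 11.43 in the GNPs, a difference of -1.70 ± 0.21 (adjusted p = 1.88e-06). Hmgcs1, the synthase at the entry of the pathway, measured 10.95, 10.94, 11.39 and 11.37 in the Ptch1+/- tumours, against 12.83, 12.89 and 12.80 in the GNPs, a difference of -1.68 ± 0.15 (adjusted p = 2.47e-08), with 4 of its 5 probe sets lower and the most variable one higher. Msmo1, a sterol demethylase, and Sqle, the squalene oxidase, fell by differences of -1.46 and -1.18, with tumours 3 and 4 below the other pair. The sterol element TCACNCCAC, to which SREBP factors bind, was found on either strand in 1 of the 16 listed genes with a promoter window and in 1.24% of all windows. The 1 was Hmgcs1, chr13:119690101-119690400 on the plus strand of GRCm38.p6, printed with the match in capitals, which begins 137 bases before the start.
Hmgcs1: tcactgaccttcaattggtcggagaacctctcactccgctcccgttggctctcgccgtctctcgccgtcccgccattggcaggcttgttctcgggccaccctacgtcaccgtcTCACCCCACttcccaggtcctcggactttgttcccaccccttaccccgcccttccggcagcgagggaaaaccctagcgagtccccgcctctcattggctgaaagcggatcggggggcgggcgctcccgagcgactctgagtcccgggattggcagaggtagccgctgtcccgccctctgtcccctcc

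Notch signalling genes were called lower only, as deposited. Of 23 measured 13 were lower and 0 higher, 9 fell on both scales, and 6 were called higher after centring alone. The last count stands beside 9398 of all 18194 genes called higher after centring. Hes5, the repressor that is the classical Notch target in neural progenitors, measured 4.94, 6.38, 6.43 and 6.51 in the Ptch1+/- tumours, against 8.65, 8.77 and 8.31 in the GNPs. All tumours lay under all GNPs samples, tumour 1 the lowest, and the difference was -2.51 ± 0.40 (adjusted p = 3.9e-05). Nrarp, a target that feeds back on the pathway, measured 6.79, 6.57, 7.07 and 7.02 in the Ptch1+/- tumours, against 8.93, 8.85 and 8.70 in the GNPs, a difference of -1.96 ± 0.26 (adjusted p = 3.8e-06). Of the receptors, Notch3, known from mural cells and glia, fell with -2.16 ± 0.20 (adjusted p = 4.83e-08), and Notch4, known from endothelium, with -2.02 ± 0.29 (adjusted p = 1.43e-05). Mfng, a glycosyltransferase that tunes Notch receptors, fell with -2.02 ± 0.42 (adjusted p = 0.000624), tumour 1 (8.77) close to GNPs (9.23 to 9.49). The letters GTGGGAA, bound by the Notch factor RBPJ, were found on either strand in 3 of the 19 listed genes with a promoter window and in 6.38% of all windows. The Hes5 window holds 2 of them. It lies at chr4:154960673-154960972 on the plus strand of GRCm38.p6, with the matches, which begin 226 and 83 bases before the start, in capitals.
Hes5: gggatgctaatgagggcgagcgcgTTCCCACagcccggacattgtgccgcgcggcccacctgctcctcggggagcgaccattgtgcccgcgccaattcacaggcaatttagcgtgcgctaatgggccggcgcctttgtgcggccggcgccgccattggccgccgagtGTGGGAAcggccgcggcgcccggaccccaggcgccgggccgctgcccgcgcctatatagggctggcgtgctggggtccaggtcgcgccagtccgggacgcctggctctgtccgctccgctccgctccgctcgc

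BMP signals, which oppose SHH in GNPs, and their ID targets had the lowest median of the pathway lists, -0.98. Of 22 genes 10 fell and 0 rose on both scales. After centring alone 7 were called higher, beside 9398 of all 18194 genes called higher after centring. Bmp6 measured 4.34, 4.78, 4.99 and 4.12 in the Ptch1+/- tumours, against 8.38, 8.09 and 7.85 in the GNPs, a difference of -3.55 ± 0.23 (adjusted p = 2.57e-10), and Bmp4 4.98, 5.07, 4.75 and 4.57 in the Ptch1+/- tumours, against 7.75, 7.37 and 7.48 in the GNPs, a difference of -2.69 ± 0.15 (adjusted p = 2.25e-11). Both ligands were low in every tumour. Id4 and Id3, inhibitors of proneural factors that BMPs induce, fell with -3.27 ± 0.83 (adjusted p = 0.0033) and -2.48 ± 0.28 (adjusted p = 5.91e-07), and the receptor Bmpr1b with -2.47 ± 0.32 (adjusted p = 2.96e-06). In the insulin-like growth factor axis 2 of 17 genes rose and 6 fell. Besides Igf2 these included Igf1 (-2.15 ± 0.18, adjusted p = 1.24e-08), the binding proteins Igfbp2 (-1.93 ± 0.32, adjusted p = 5.93e-05) and Igfbp5 (-1.92 ± 0.46, adjusted p = 0.00199), and the RNA-binding protein Igf2bp3 (-1.62 ± 0.28, adjusted p = 0.000112). WNT genes moved both ways, 4 up and 6 down of 20. The antagonist Sfrp2 measured 12.32, 11.64, 11.28 and 11.42 in the Ptch1+/- tumours, against 9.72, 9.23 and 9.08 in the GNPs, and rose by 2.32 ± 0.35 (adjusted p = 1.85e-05) together with Sfrp1, and the target Lgr5 rose by 2.11 ± 0.32 (adjusted p = 1.93e-05). Sp5, a direct target of beta-catenin, measured 5.99, 4.86, 5.29 and 5.84 in the Ptch1+/- tumours, against 9.11, 9.59 and 9.63 in the GNPs, a difference of -3.94 ± 0.36 (adjusted p = 2.75e-08). The mediator Lef1 (-2.02 ± 0.21, adjusted p = 1.68e-07) and the antagonist Wif1 (-2.57 ± 0.75, adjusted p = 0.0089) fell. Several of these genes are also expressed by the vessels, meninges, choroid plexus and glia whose markers fell, as given below, and the part of those cells in these results was not tested.

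**Figure D3:**
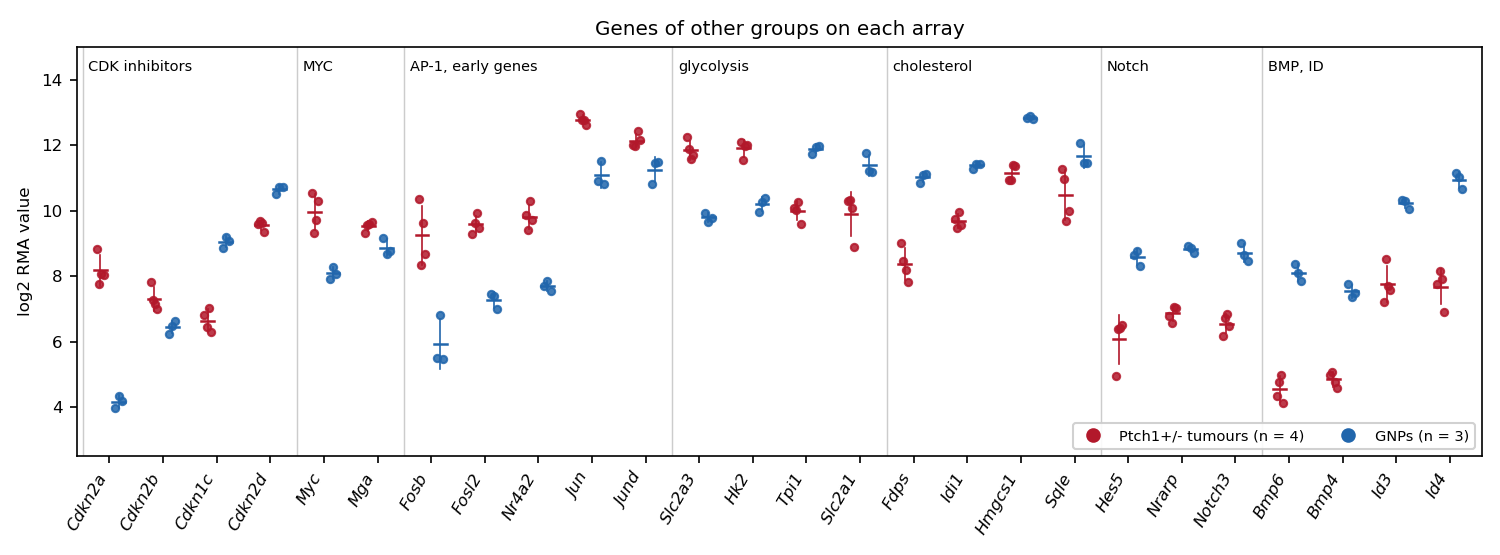
Log2 RMA values of 26 genes of 7 groups on the 4 Ptch1+/- arrays (red, left of each pair) and the 3 GNPs arrays (blue), with group means and 1 SD. Cdkn2a, Myc, Fosb, Fosl2, Slc2a3 and Hk2 lie higher in the tumours, and the cholesterol, Notch and BMP genes shown lie lower.

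Chromatin genes rose in part. Of 20 genes of PRC2 and DNA methylation 7 rose and 0 fell on both scales, beside 9.40% and 12.5% of all genes. As deposited, 2 of the 20 were lower. The rises were led by the DNA demethylation enzymes Tet2 (1.13 ± 0.23, adjusted p = 0.000581) and Tet3 (0.93 ± 0.17, adjusted p = 0.000145). Ezh2, the methyltransferase of PRC2, measured 12.21, 12.23, 12.50 and 12.36 in the Ptch1+/- tumours, against 11.73, 11.76 and 11.63 in the GNPs, a rise of 0.61 ± 0.15 (adjusted p = 0.00272). Of 17 chromatin regulators that are mutated in human medulloblastoma 6 rose and 0 fell on both scales, and 1 was lower as deposited. Kmt2d, a histone H3 lysine methyltransferase, measured 10.13, 9.73, 10.06 and 10.15 in the Ptch1+/- tumours, against 9.18, 8.36 and 8.23 in the GNPs, and rose by 1.43 ± 0.23 (adjusted p = 4.33e-05), its relative Kmt2c by 1.05 ± 0.17 (adjusted p = 6.18e-05), Brpf1 by 0.93 ± 0.11 (adjusted p = 1.38e-06), the LIM cofactor Ldb1 by 0.89 ± 0.21 (adjusted p = 0.00198) and the remodeller Chd7 by 0.59 ± 0.19 (adjusted p = 0.015). In each of these 5 regulators GNPs sample 1 lay closest to the tumours.

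Genes of the primary cilium, the organelle in which SMO signals, were 4 up and 5 down on both scales of 31, near the 9.40% and 12.5% of all genes. The 5 that fell were intraflagellar transport or motor genes, Ift20, Ift74, Ift57, Ift52 and Kif3b, with differences from -1.52 for Ift20 to -0.98 for Ift52. Of 28 axon guidance and migration genes 2 rose and 8 fell, beside the same shares of all genes. Robo2, a SLIT receptor, measured 6.53, 7.18, 7.41 and 7.37 in the Ptch1+/- tumours, against 5.03, 3.99 and 3.90 in the GNPs, and rose by 2.82 ± 0.55 (adjusted p = 0.000358). Its ligand Slit2 measured 4.46, 7.46, 5.59 and 6.44 in the Ptch1+/- tumours, against 9.29, 8.91 and 8.81 in the GNPs, with tumour 2 nearest to GNPs, and fell with -3.01 ± 0.52 (adjusted p = 9.88e-05). Ackr3, the scavenger receptor for the GNP attractant CXCL12, fell with -3.24 ± 0.40 (adjusted p = 1.71e-06), and Sema3a, a repellent, with -2.11 ± 0.34 (adjusted p = 4.1e-05). The 3 antigen presentation genes that rose, of 14, were those of MHC class II: H2-Aa measured 9.43, 9.46, 9.53 and 8.99 in the Ptch1+/- tumours, against 6.81, 6.79 and 7.12 in the GNPs, a rise of 2.45 ± 0.58 (adjusted p = 0.00181), H2-Ab1 rose by 1.70 ± 0.49 (adjusted p = 0.00872) and H2-Eb1 by 1.52 ± 0.48 (adjusted p = 0.0156). Interferon-stimulated genes were mostly not called, 15 of 17, and Xaf1 fell (-1.29 ± 0.30, adjusted p = 0.00181).

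**Figure D4:**
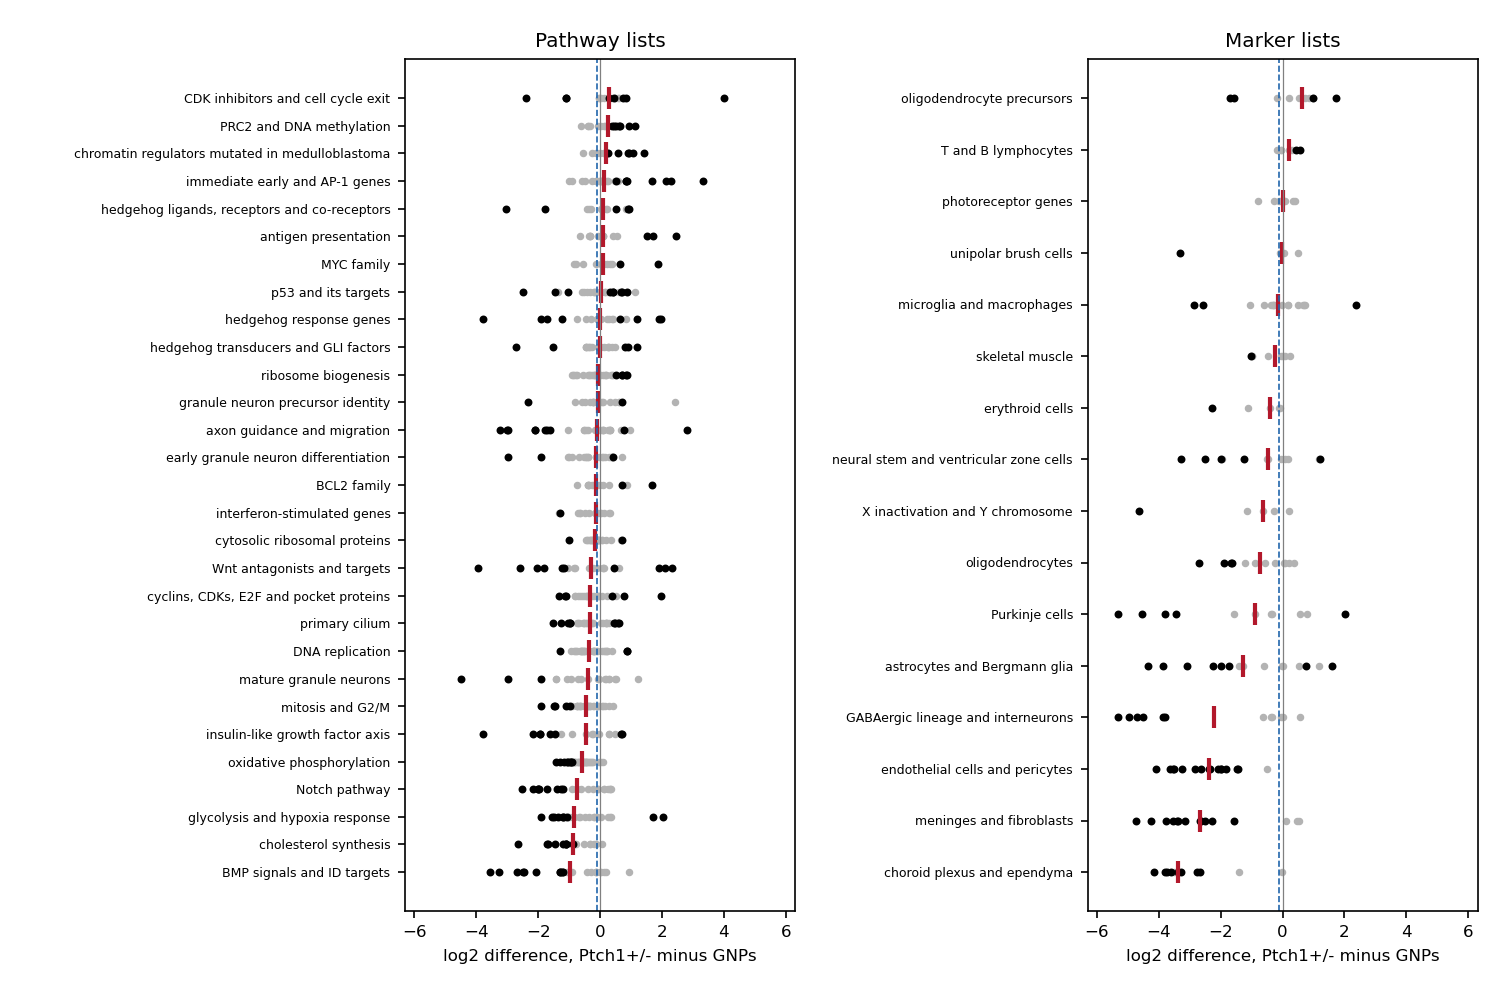
Log2 difference (Ptch1+/- minus GNPs) of every measured member of 29 pathway lists and 16 marker lists. Black points were called on both scales, grey points were not, red ticks are list medians, and the dashed line is the median of all genes, -0.10. Pathway medians lie between -0.98 and 0.30, and the choroid plexus, meninges and endothelial lists lie at -3.38, -2.65 and -2.36.

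Markers of vessels, meninges and choroid plexus had lower medians than any pathway list. In such bulk samples fewer cells of a type and less RNA per cell cannot be told apart. All 16 endothelial and pericyte markers were lower in the tumours, 15 on both scales, with a list mean of 6.31 to 7.17 over the tumours and 9.13 to 9.65 over GNPs. Tek, the angiopoietin receptor, measured 5.79, 5.14, 4.84 and 4.39 in the Ptch1+/- tumours, against 9.37, 8.93 and 9.09 in the GNPs, a difference of -4.09 ± 0.32 (adjusted p = 3.66e-09), and Kdr, the VEGF receptor, 7.03, 6.92, 7.11 and 6.66 in the Ptch1+/- tumours, against 10.84, 10.21 and 10.22 in the GNPs, a difference of -3.50 ± 0.34 (adjusted p = 9.18e-08). Pdgfrb of pericytes fell with -3.63 ± 0.46 (adjusted p = 2.58e-06), and Emcn and Cdh5 of endothelium with -3.54 ± 0.39 (adjusted p = 3.69e-07) and -3.26 ± 0.41 (adjusted p = 2.76e-06). Of 15 meningeal and fibroblast markers 12 fell on both scales, the list mean being 6.85 to 7.64 in the tumours and 9.65 to 10 in GNPs. Col1a2, a collagen chain, measured 8.28, 7.91, 7.63 and 6.94 in the Ptch1+/- tumours, against 12.11, 12.02 and 11.70 in the GNPs, and Ptgds, the prostaglandin synthase of meninges and choroid plexus, 9.10, 9.45, 9.44 and 8.63 in the Ptch1+/- tumours, against 13.18, 12.42 and 13.15 in the GNPs. Their differences were -4.25 ± 0.45 (adjusted p = 2.46e-07) and -3.76 ± 0.48 (adjusted p = 2.76e-06). Of 11 choroid plexus and ependymal markers 8 fell on both scales. Folr1, a folate receptor of choroid epithelium, measured 4.87, 6.64, 5.78 and 4.98 in the Ptch1+/- tumours, against 9.70, 9.05 and 9.14 in the GNPs, a difference of -3.73 ± 0.39 (adjusted p = 1.83e-07), and Tmem212 of ciliated ependyma fell with -4.15 ± 0.24 (adjusted p = 3.36e-11).

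Markers of the GABAergic lineage were lower in part. Of 12 measured markers 6 fell on both scales and 0 rose, with a list mean of 5.13 to 5.47 in the tumours and 7.54 to 7.69 in GNPs. Ptf1a, which specifies cerebellar GABAergic neurons, measured 4.24, 3.64, 3.45 and 3.66 in the Ptch1+/- tumours, against 8.11, 8.38 and 8.28 in the GNPs, a difference of -4.50 ± 0.27 (adjusted p = 6.68e-11). Slc32a1, the vesicular GABA transporter, fell with -3.85 ± 0.42 (adjusted p = 3.26e-07), and Lhx5, a homeobox gene of young Purkinje and GABAergic cells, with -3.79 ± 0.15 (adjusted p = 2.23e-13). Skor1 measured 8.53, 4.51, 6.43 and 6.14 in the Ptch1+/- tumours, against 11.11, 11.15 and 11.07 in the GNPs, tumour 1 the highest and tumour 2 the lowest of the tumours, with a difference of -4.71 ± 0.61 (adjusted p = 3.42e-06). Of 11 Purkinje markers 4 fell, among them Calb1 (-4.55 ± 0.77, adjusted p = 7.41e-05) and Car8 (-3.45 ± 0.44, adjusted p = 2.62e-06), and 1 rose: Foxp2, a transcription factor not limited to Purkinje cells, measured 9.91, 9.80, 10.11 and 9.97 in the Ptch1+/- tumours, against 7.87, 8.03 and 7.92 in the GNPs, a rise of 2.01 ± 0.28 (adjusted p = 8.93e-06). Eomes, the marker of unipolar brush cells, fell with -3.30 ± 0.44 (adjusted p = 4.44e-06), the only 1 of 5 markers of these cells that was called.

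Glia and blood-derived cells were mixed. Of 15 astrocyte and Bergmann glia markers 6 fell and 2 rose on both scales. The 2 that rose, named after their values were seen, were Slc1a2, a glutamate transporter, with 12.65, 12.20, 11.93 and 12 in the Ptch1+/- tumours, against 10.90, 10.66 and 10.25 in the GNPs and a difference of 1.59 ± 0.22 (adjusted p = 8.09e-06), and Sox9, a glial transcription factor (0.78 ± 0.26, adjusted p = 0.0216). Gdf10, a Bergmann glia growth factor, measured 7.43, 7.27, 7.02 and 6.66 in the Ptch1+/- tumours, against 11.56, 11.73 and 11.05 in the GNPs, a difference of -4.35 ± 0.41 (adjusted p = 5.65e-08), and Gja1, the astrocyte connexin, fell with -3.87 ± 0.38 (adjusted p = 9.93e-08), Aldh1l1 with -3.09 ± 0.60 (adjusted p = 0.000297) and Fabp7 with -1.98 ± 0.44 (adjusted p = 0.00115). Of 12 oligodendrocyte markers 4 fell, led by Cldn11 (-2.69 ± 0.59, adjusted p = 0.000943) and Cnp (-1.88 ± 0.42, adjusted p = 0.00127). Of 10 precursor markers 2 rose and 2 fell, C1ql1 rising by 1.73 ± 0.41 (adjusted p = 0.00185) and Gpr17 falling with -1.58 ± 0.43 (adjusted p = 0.0058). Of 16 microglia and macrophage markers 12 were not called. Mrc1, of perivascular macrophages, fell with -2.85 ± 0.41 (adjusted p = 1.4e-05), and P2ry12, of resting microglia, with -2.56 ± 0.52 (adjusted p = 0.000523), whereas Lyz2, lysozyme of myeloid cells, measured 11.69, 11.43, 9.96 and 9.80 in the Ptch1+/- tumours, against 8.24, 8.21 and 8.64 in the GNPs, and rose by 2.36 ± 0.37 (adjusted p = 3.23e-05). The list mean of these 16 was 6.50 to 8.33 in the tumours, tumours 1 and 2 highest, and 7.28 to 7.57 in GNPs. Tumours 1 and 2 were also the highest in H2-Ab1 and H2-Eb1, and the part of macrophages in the MHC class II values was not tested. Of 9 measured lymphocyte markers Cd8a and Cd3g rose, by 0.56 and 0.43. Cd3g was below the lower quartile of all probe sets in every sample, and Cd8a overlapped between the groups. Erythroid Slc4a1 fell with -2.27 ± 0.25 (adjusted p = 5.62e-07), and the markers of photoreceptors (0 of 9 called on both scales) and skeletal muscle (1 of 8) were low in both groups.

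**Figure D5:**
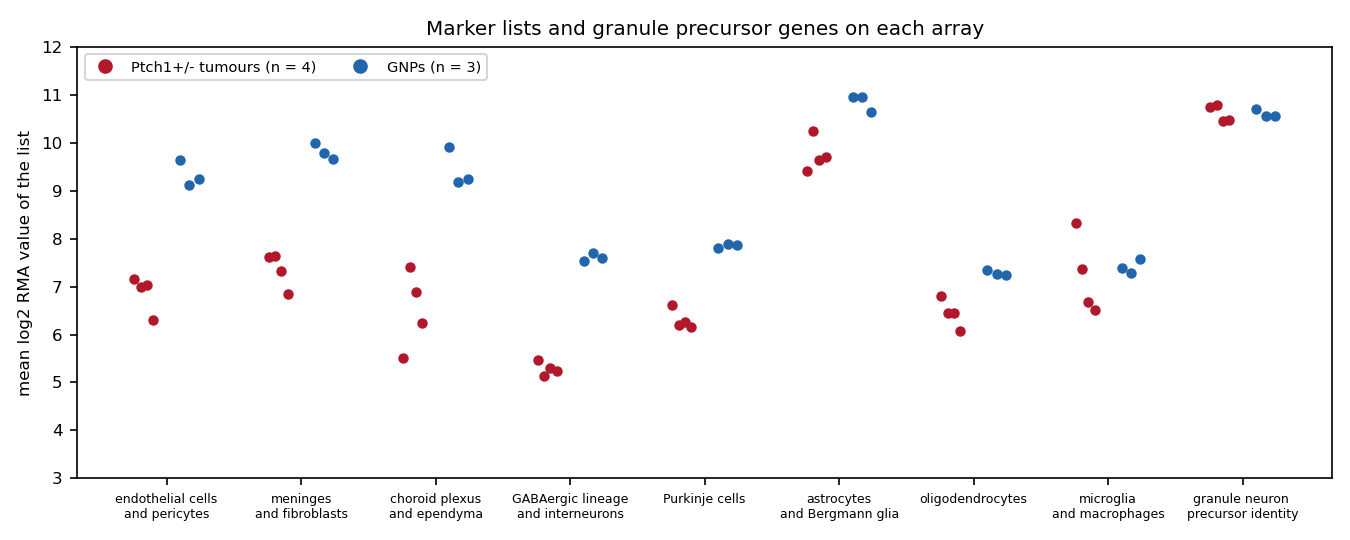
Mean log2 RMA value of 8 marker lists and of the granule neuron precursor genes on each of the 4 Ptch1+/- arrays (red, left) and the 3 GNPs arrays (blue). The groups overlap for the precursor genes and the microglial list and are separate for the other 7.

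The tumours differed from each other more than the GNPs samples did. Among 9927 genes whose higher group mean was above 7.31 the median SD was 0.25 over the 4 tumours and 0.14 over the 3 GNPs samples, and 138 genes had an SD over 1 in the tumours, against 11 in GNPs. Apart from Xist, the genes named in this paragraph were chosen after their values were seen. Ttr, the transthyretin of choroid plexus, had the highest SD (5.11) among genes with a tumour mean above 7.31, with 3.78, 14.66, 14.33 and 12.46 in the tumours, against 14.92, 14.77 and 14.79 in the GNPs. Tumour 1 alone was low. Otx1, a forebrain and midbrain homeobox gene, measured 11.14, 5.68, 10.48 and 5.15 in the tumours, against 8.31, 8.21 and 8.31 in the GNPs, so that tumours 1 and 3 lay above and tumours 2 and 4 below. Olig3, a rhombic lip factor, measured 10.01, 10.54, 7.91 and 7.01 in the tumours, against 6.74, 6.22 and 6.33 in the GNPs. All tumours lay above all GNPs samples, and its difference of 2.43 ± 1.04 (adjusted p = 0.0705) did not pass. The sex genes showed a mixed group as well. Xist measured 5.94, 6.20, 12.73 and 6.14 in the Ptch1+/- tumours, against 13.20, 12.18 and 11.74 in the GNPs, and the Y-linked Eif2s3y 10.12, 10.25, 3.14 and 10.17 in the tumours, against 9.43, 9.45 and 9.86 in the GNPs. Tumour 3 alone had Xist without Eif2s3y, the other tumours had the reverse, and every GNPs sample had both. Each GNPs sample thus held RNA of both sexes, although the labels do not state pooling. The smaller SD over the GNPs samples can therefore not be read as less variation between animals. The difference of Xist was -4.62 ± 1.82 (adjusted p = 0.0492), with overlapping groups, a call lost without any 1 of 6 of the 7 arrays (limma adjusted p = 0.083 to 0.133), and the labels do not give the sexes.

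Set against MERP tumours, 5818 of 18194 genes (32.0%) differed, 1107 higher and 4711 lower in Ptch1+/- tumours as deposited. This comparison shares the Ptch1+/- arrays with the one above and was read on the deposited scale alone, on which the median over named genes of the MERP arrays was 7.22 to 7.39. Ptch1 averaged 11.85 in Ptch1+/- tumours, 13.04 in MERP tumours and 11.82 in GNPs, and was lower in Ptch1+/- than in MERP tumours by a difference of -1.19 ± 0.18 (adjusted p = 5.93e-05). Gli1 averaged 10.34 in Ptch1+/- tumours, 10.36 in MERP tumours and 9.15 in GNPs, with a difference between the tumours of -0.02 ± 0.21 (adjusted p = 0.958), and the difference of Mycn was -0.03 ± 0.19 (adjusted p = 0.912). Cdkn2a averaged 8.17 in Ptch1+/- tumours, 8.34 in MERP tumours and 4.17 in GNPs, with a difference of -0.17 ± 0.65 (adjusted p = 0.874), and that of Myc was 0.25 ± 0.28 (adjusted p = 0.546). Gli3 was lower than in MERP tumours, with a difference of -1.43 ± 0.34 (adjusted p = 0.00249). Hes5, Grb10 and Fdps were lower as well, with -1.76 ± 0.35 (adjusted p = 0.000622), -2.90 ± 0.74 (adjusted p = 0.00429) and -1.67 ± 0.28 (adjusted p = 0.000117). Smo and Fosb were higher, by 0.83 ± 0.23 (adjusted p = 0.00918) and 2.07 ± 0.59 (adjusted p = 0.00974). Malat1 was higher by 4.09 ± 0.52 (adjusted p = 1.03e-05), averaging 13.67 in Ptch1+/- tumours, 9.58 in MERP tumours and 9.23 in GNPs. Of the 38 oxidative phosphorylation genes 31 were lower and 0 higher than in MERP tumours, and of the 34 mitosis genes 24 were lower and 0 higher. Over all 18194 genes 4711 were lower and 1107 higher. The medians over named genes were 6.94 to 7.22 on the Ptch1+/- arrays, against 7.22 to 7.39 on the MERP arrays. The part of this shift in the list counts was not tested. Of the 16 endothelial markers 0 were lower and 1 was higher, of the 15 meningeal markers 2 were lower and 2 higher, and of the 11 choroid plexus markers 0 were called.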

How the data were processed

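Total RNA of 4 Ptch1+/- tumours and 3 GNPs samples was measured on Affymetrix Mouse Genome arrays. The deposited values are log2 signals that the authors made with RMA in Affymetrix Expression Console (version 1.3.1). Of 45101 probe sets 34958 were annotated with 1 gene, and each of 18194 genes was represented by its probe set of highest mean signal across the 23 arrays. Differences were tested with limma (3.58.1, R 4.3.3) in 1 model of 6 groups, with Benjamini-Hochberg adjustment over all genes and a threshold of 0.05. The fit was tested on simulated data. It was repeated after centring each array on the median of its named genes or of all its probe sets, and with other probe set rules, filters, normalisations, array weights and each replicate left out. The precision is limited by the number of arrays.

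The comparison and its 45 gene lists (859 genes, 785 measured) were chosen with earlier results of these data known. Named were the hedgehog genes described by role, up to 5 genes per other list with the largest differences called on both scales, a member that marks a list, and the 12 highest and 12 lowest genes whose groups did not overlap. Genes outside this rule are said to have been chosen after their values were seen. Promoters, from RefSeq (GRCm38.p6) and matched by symbol, were searched on both strands. List counts are of genes with a match in any of their windows, whereas the shares over all are of windows.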

Additional observations from a re-analysis of the deposited data

Results flagged for a closer look

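Of the 182 genes named, 12 had 1 tumour array that stood apart from the other 3 by Dixon's criterion, a frequency to be read against about 1 in 20 by chance. Tumour 1 stood apart in 6 of them. It was lowest in Hes5 (4.94) and Malat1 (12.58), and highest in Ccn3 (5.52), Fos (13.62), Mfng (8.77) and Wif1 (5.49). Tumour 3 stood apart in 5, highest in Efcab7 (6.70) and Xist (12.73), and lowest in Gad1 (3.73), Trp73 (5.53) and Eif2s3y (3.14). The criterion does not weigh the size of a gap. The tumours spanned only 5.53 to 5.65 in Trp73, against 3.14 to 10.25 in Eif2s3y. Tumour 4 was lowest in Slc2a1 (8.88).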

How the results depend on the processing

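The count of 7150 genes called became 11675 after centring each array on the median of its named genes and 2753 with a minimum of 2-fold. The share called higher, 23.9% as deposited, became 80.5% after that centring, 54.1% after quantile normalisation of the named genes and 41.2% after centring on the median deviation, a setting chosen after seeing the data. The 3987 genes called on both scales became 6091 with the probe set of highest SD, 6188 with array weights and 1510 with a minimum of 2-fold. Leaving out 1 array gave 5772 to 7598 genes called, 20.5% to 23.7% of them higher, and 3039 to 4164 called on both scales. With the probe set of highest SD the differences of Hmgcs1, Xaf1 and Orc1 changed sign, to 0.46, 0.0064 and -0.0085, and with the mean of a gene's probe sets that of Tyms did, to -0.014, and none passed. Of 182 named genes 131 kept their call and direction in every setting. Besides Lcn2, Map2 and Xist, Cdkn2b, Chd7, Dusp1, Gas1, Gpr17, H2-Eb1, Rpl12, Sox9 and Tyms lost the call without 1 array, with limma adjusted p-values of 0.0509 to 0.176.

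Same-numbered tumours and GNPs did not deviate together (r = 0.0207, -0.0907 and 0.0809), so that they share only a number, and a replicate block over the 7 arrays gave 4979 genes called.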

Other observations

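The genes below were chosen after their values were seen. Of 33 imprinted genes measured, which are expressed from 1 parental copy, 4 rose and 10 fell on both scales, beside 9.40% and 12.5% of all genes, so that the rises were near the share over all genes. Ndn, a neuronal growth suppressor, measured 6.96, 9.34, 9.29 and 8.15 in the Ptch1+/- tumours, against 12.82, 12.78 and 12.76 in the GNPs, a difference of -4.35 ± 0.47 (limma adjusted p = 3.81e-07). The maternally expressed noncoding RNAs Rian and Meg3, neighbours in 1 imprinted cluster, differed by -3.86 ± 0.49 and -2.77 ± 0.41, and the zinc finger gene Plagl1 by -2.82 ± 0.54. The antisense transcripts Kcnq1ot1 and Airn rose, by 2.83 ± 0.33 and 2.17 ± 0.41. Whether their probe sets tell them apart from the genes they overlap was not tested.

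Of 13 long noncoding RNAs measured, 7 rose and 3 fell on both scales. Besides Malat1, Miat measured 12.87, 13.60, 13.52 and 13.69 in the Ptch1+/- tumours, against 12.37, 11.47 and 11.41 in the GNPs, a difference of 1.67 ± 0.46 (limma adjusted p = 0.00594). Snhg14 rose by 1.22 ± 0.21. In Malat1, Miat, Kcnq1ot1 and Airn GNPs sample 1 lay closest to the tumours.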
